A study of Homo sapiens with 6 samples.

Results

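The Notch genes described here are 3 receptors (NOTCH1, NOTCH2 and NOTCH3), 3 ligands (JAG1, JAG2 and DLL1) and 4 targets of the pathway (HES1, HES4, HEY1 and NRARP), taken by symbol from a table of 52408 genes, in which all 10 were found. RNA was sequenced from HepG2, a human line grown from a liver tumour that makes many hepatocyte proteins. One group received ellagic acid (EA, a polyphenol of berries and nuts) at 50 µM over 24 h, and the other received as much of the solvent DMSO. Each group had 3 libraries of 1 cell line, and nothing in the labels says that they came from separate cultures, so that p-values reflect no more than the spread among these libraries, which can be technical. The comparison asks how transcripts of a signalling pathway differ between cells given the compound and cells given its solvent.

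Notch is a pathway between touching cells. A ligand of the Jagged or Delta-like family on one cell binds a NOTCH receptor on its neighbour, the receptor is cut by ADAM proteases and then by gamma-secretase, and its freed intracellular domain enters the nucleus, where it joins the DNA-binding protein RBPJ and a Mastermind coactivator. The best known targets are the HES and HEY genes, which encode transcriptional repressors, and NRARP, whose product restrains the receptor's intracellular domain. In the liver the pathway is known above all for JAG1 and NOTCH2, which are needed for the formation of bile ducts and are the genes mutated in Alagille syndrome.

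The promoters of 4 genes are shown because they carry, or lack, the letters that RBPJ is known to bind, and because these genes moved in different directions. HES1 and HES4 were lower with EA, and NRARP and HES5, a related target outside the 10 genes, were higher. Each window runs from 250 bases before to 50 bases after the gene's start in RefSeq (GRCh38.p14), 5′ to 3′ on the gene's own strand. The windows lie at chr3:194135898-194136197 (plus strand) for HES1, chr1:1000048-1000347 (minus strand) for HES4, chr9:137302222-137302521 (minus strand) for NRARP and chr1:2530214-2530513 (minus strand) for HES5. Capitals mark GTGGGAA, the core of the RBPJ motif, and the shorter TGGGAA that it contains, on either strand (TTCCCAC and TTCCCA when read on the other strand).
HES1: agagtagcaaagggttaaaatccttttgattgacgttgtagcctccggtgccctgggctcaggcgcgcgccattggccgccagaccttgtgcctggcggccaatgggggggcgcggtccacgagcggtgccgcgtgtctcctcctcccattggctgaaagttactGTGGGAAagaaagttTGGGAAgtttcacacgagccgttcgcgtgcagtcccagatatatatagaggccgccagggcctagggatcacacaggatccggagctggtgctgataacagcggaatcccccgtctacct
HES4: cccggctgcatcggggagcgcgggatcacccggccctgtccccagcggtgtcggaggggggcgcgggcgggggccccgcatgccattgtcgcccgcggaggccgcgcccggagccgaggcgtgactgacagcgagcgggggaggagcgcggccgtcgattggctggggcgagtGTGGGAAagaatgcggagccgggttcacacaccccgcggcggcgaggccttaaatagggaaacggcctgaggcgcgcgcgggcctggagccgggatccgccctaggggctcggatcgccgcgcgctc
NRARP: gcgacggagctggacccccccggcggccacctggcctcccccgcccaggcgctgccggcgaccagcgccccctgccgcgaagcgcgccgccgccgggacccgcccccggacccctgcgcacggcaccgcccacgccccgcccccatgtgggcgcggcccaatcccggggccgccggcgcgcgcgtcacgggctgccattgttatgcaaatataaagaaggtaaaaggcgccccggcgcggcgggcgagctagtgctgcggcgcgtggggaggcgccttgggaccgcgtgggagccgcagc
HES5: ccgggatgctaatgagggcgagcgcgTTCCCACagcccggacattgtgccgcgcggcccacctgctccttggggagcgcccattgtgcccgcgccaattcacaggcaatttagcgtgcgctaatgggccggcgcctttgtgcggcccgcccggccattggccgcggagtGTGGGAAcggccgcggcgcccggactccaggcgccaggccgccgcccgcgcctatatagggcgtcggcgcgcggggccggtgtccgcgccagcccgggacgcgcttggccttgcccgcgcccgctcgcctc

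In HES1, GTGGGAA began 85 bases before the start and a further TGGGAA began 70 bases before it. In HES4 the only match to GTGGGAA began 77 bases before the start. HES5 held it at 81 bases before the start and, on the other strand, at 224 bases. Neither form was in the NRARP window, which says only that these letters are not in these 300 bases. Promoters were found for 8 of the 10 genes, and those of HES1 and HES4 were the 2 with GTGGGAA on either strand, which 6.25% of 35093 RefSeq promoter windows of the same length held. The shorter TGGGAA was in 24.0% of all windows and in the same 2 of the 8. Outside the 10 genes, the windows of HES2, which was higher with EA, and HES6, which was lower, were also searched. They held neither form. A match is a description of the sequence and not a site shown to be bound.

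Receptor and ligand transcripts were higher with EA, while the targets split. NRARP was far higher, HES1 and HES4 were lower, and HEY1 could not be told from its level with DMSO. All 10 genes passed the filter on low counts and were tested in edgeR's quasi-likelihood test over 15648 genes with Benjamini-Hochberg adjustment. At an adjusted p under 0.05, 7 were higher, 2 were lower and 1 was not called, beside 40.5% of all tested genes higher and 40.5% lower, 81.0% in all. That 9 of the 10 were called is therefore near the background. In this fit all 7 of the higher genes were at least 2-fold higher, a class that held 23.4% of the tested genes. The median log2 fold change of the 10 genes was 1.81 and that of all tested genes 0.00. DLL1 and JAG2 passed the filter through the EA libraries, since 0 and 1 of the 3 DMSO libraries reached its level of 0.474 CPM, so a gene of their kind had to be higher to be tested. CPM is a gene's read count set against the size of its library, scaled by TMM, and levels are therefore relative to the other genes of a library. In bulk RNA, fewer cells that make a transcript and less of it per cell cannot be told apart.

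**Figure D1:**
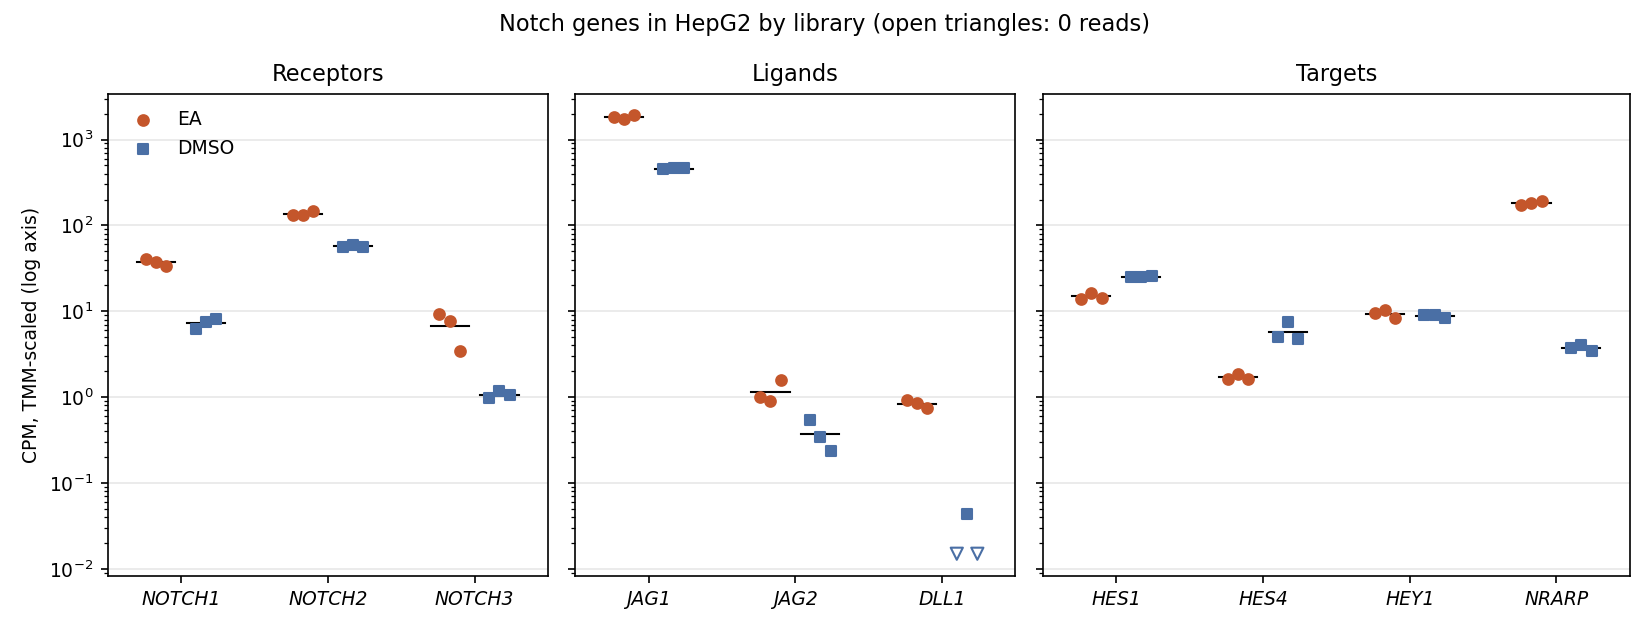
Level of each gene in each library, as TMM-scaled CPM on a log axis, with EA libraries as circles left of the DMSO libraries as squares, and short black bars at group means. The 3 EA libraries lie above the 3 DMSO libraries for every receptor and ligand and for NRARP, and below them for HES1 and HES4, while for HEY1 2 EA libraries lie above the DMSO libraries and 1 below; open triangles are the 2 DMSO libraries with 0 reads of DLL1, and no mean bar is drawn for that group.

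Reads assigned to genes numbered 15738089 to 19202292 in the EA libraries and 22987425 to 25973621 in the DMSO libraries. EA replicate 3 stood apart from the other 2 EA libraries on the second principal component, at -33.78 against 18.54 and 14.19. The hepatocyte markers ALB and AFP were abundant in every library, and the 10 hepatocyte markers summed to 12040 to 12449 CPM with EA and 49012 to 51672 CPM with DMSO, with 9 lower and 1 (APOA1) higher. Of all tested genes, 40.5% were lower and 40.5% higher. Bile duct markers, which matter beside Notch genes, summed to 1835 to 2039 CPM with EA and 2019 to 2054 CPM with DMSO, with the keratin KRT19 higher (log2 fold change 1.68), SOX9, EPCAM and SPP1 lower, and KRT7 and CFTR too low to test. Endothelial markers summed to 3.34 to 4.42 CPM with EA and 2.32 to 2.44 CPM with DMSO, over the 4 of 5 that were matched, with 1 higher (VWF), 1 lower (CDH5) and none at 0 reads in all libraries. Stromal markers summed to 56.6 to 62.1 CPM with EA and 47.1 to 48.2 CPM with DMSO, with ACTA2 higher (log2 fold change 0.81), COL1A1 and PDGFRB lower (-4.17 and -1.58), and COL1A2 and DCN at 0 reads. COL1A1 had 1, 0 and 1 reads with EA and 14, 15 and 28 with DMSO, so it passed the filter through the DMSO libraries. Immune markers summed to 291 to 355 CPM with EA and 1761 to 1841 CPM with DMSO, nearly all of it from the lysozyme gene LYZ, with LYZ and CD14 lower and PTPRC, CD3E and CD68 at 0 reads. CD14 had 1, 2 and 9 reads with EA and 49, 33 and 42 with DMSO, and CDH5 6, 5 and 7 against 29, 35 and 32. Like COL1A1, they passed the filter only through the DMSO libraries, so genes of their kind had to be lower to be tested. The part of these shifts in the Notch results was not tested.

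All 3 receptors rose. NOTCH1 (ENSG00000148400, chromosome 9), the receptor studied most in blood and cancer, had 40.6, 37.5 and 33.7 CPM in the EA libraries, against 6.15, 7.48 and 8.10 CPM in the DMSO libraries. The lowest EA library was thus more than 4 times the highest DMSO library, and the groups were far apart. The log2 fold change was 2.36 (SE 0.12, adjusted p = 4.23e-11), or 5.14-fold, and 91.0% of tested genes had a lower one.

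NOTCH2 (ENSG00000134250, chromosome 1), the receptor of bile duct formation, had 131, 131 and 149 CPM with EA and 56.4, 59.6 and 55.7 CPM with DMSO. The groups did not overlap, and each was tight. Its log2 fold change was 1.26 (SE 0.07, adjusted p = 2.94e-10), the smallest of the receptors, at 2.39-fold. Human NOTCH2 has near-identical partial copies, the NOTCH2NL genes, which are not analysed here. The sources used here do not say how reads that match both were counted, which leaves the NOTCH2 level uncertain. The pseudogene NOTCH2P1 had 0 reads in every library.

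NOTCH3 (ENSG00000074181, chromosome 19), best known from smooth muscle of small arteries, was scarce. It had 148, 147 and 66 reads in the EA libraries (9.21, 7.79 and 3.49 CPM), against 25, 27 and 27 reads in the DMSO libraries (0.973, 1.17 and 1.06 CPM). EA replicate 3, the library that stood apart, was well below the other EA libraries and above every DMSO library. The log2 fold change was 2.66 (SE 0.36, adjusted p = 7.31e-05), and without EA replicate 3 it was 2.96.

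JAG1 (ENSG00000101384, chromosome 20) carried nearly all of the ligand transcripts. It had 1856, 1758 and 1911 CPM in the EA libraries, against 448, 466 and 461 CPM in the DMSO libraries. The groups lay far apart and each was tight. Its log2 fold change was 2.01 (SE 0.07, adjusted p = 6.22e-13), or 4.02-fold, which placed it at rank 334 of 15648 by p.

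The other Jagged ligand, JAG2 (ENSG00000184916, chromosome 14), was near the limit of detection, with 16, 17 and 30 reads in the EA libraries and 14, 8 and 6 reads in the DMSO libraries. In CPM these are 0.996, 0.901 and 1.59 with EA and 0.545, 0.348 and 0.236 with DMSO, which do not overlap, although the nearest values differ by a few reads. JAG2 rose, with a log2 fold change of 1.61 (SE 0.38, adjusted p = 0.00107).

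DLL1 (ENSG00000198719, chromosome 6), a Delta-like ligand known from somite and nervous system development, had 15, 16 and 14 reads in the EA libraries and 0, 1 and 0 reads in the DMSO libraries. It was thus read in every EA library and nearly absent from the others, where 0 reads allow up to 0.117 and 0.118 CPM (3 reads). The ratio of the 45 EA reads to the 1 DMSO read, scaled to library size, was 61.9 with a 95% exact interval of 10.6 to 2499 that covers counting error only. edgeR gave it an adjusted p of 2.20e-06. On the opposite strand the gene overlaps FAM120B, which had 815 to 993 reads in EA libraries and 929 to 1041 in DMSO libraries (log2 fold change 0.31, adjusted p = 0.00145). No source used here gives the strand setting of the counting. If strand was not used, reads of FAM120B and of DLL1 cannot be told apart where the genes overlap.

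Among the targets, NRARP (ENSG00000198435, chromosome 9, as NOTCH1) changed most. It had 2746, 3401 and 3655 reads in the EA libraries, against 97, 92 and 87 reads in the DMSO libraries, or 171, 180 and 193 CPM with EA and 3.78, 4.002 and 3.42 CPM with DMSO. Replicates of a group lay close together and the groups lay far apart. The log2 fold change was 5.60 (SE 0.09, adjusted p = 9.63e-16), or 48.6-fold. By p it ranked 9 of the 15648 tested genes, and from the most positive log2 fold change downward it ranked 343.

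HES1 (ENSG00000114315, chromosome 3), the repressor usually read as the main output of the pathway, went the other way. Its level was 14.1, 16.3 and 14.4 CPM in the EA libraries, against 25.3, 25.4 and 25.5 CPM in the DMSO libraries, with no overlap. The DMSO values were almost equal, and the highest EA value was well under them. HES1 fell by 0.77 on the log2 scale (SE 0.09, adjusted p = 1.65e-06), to 0.588 of its DMSO level.

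HES4 (ENSG00000188290, chromosome 1), a human relative of HES1 with no counterpart in the mouse, had 26, 35 and 31 reads with EA and 130, 171 and 121 reads with DMSO. In CPM it had 1.62, 1.85 and 1.64 with EA against 5.06, 7.44 and 4.76 with DMSO. The groups were clearly apart, although DMSO replicate 2 was above the other 2 DMSO libraries. HES4 fell by 1.74 on the log2 scale (SE 0.22, adjusted p = 2.21e-06).

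HEY1 (ENSG00000164683, chromosome 8), a repressor best known from blood vessels and heart, had 9.58, 10.3 and 8.35 CPM in the EA libraries and 9.15, 9.09 and 8.45 CPM in the DMSO libraries. EA replicates 1 and 2 were above all DMSO libraries and EA replicate 3 below them, so the ranges overlap. Its log2 fold change of 0.08 (SE 0.12, adjusted p = 0.558) was not called, which does not show that the levels were equal. With a correction for transcript length and GC content, chosen after the data were seen, it was 0.28 and called (adjusted p = 0.0406).

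Groups did not overlap for 9 of the 10 genes, beside 82.9% of all tested genes.

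**Figure D2:**
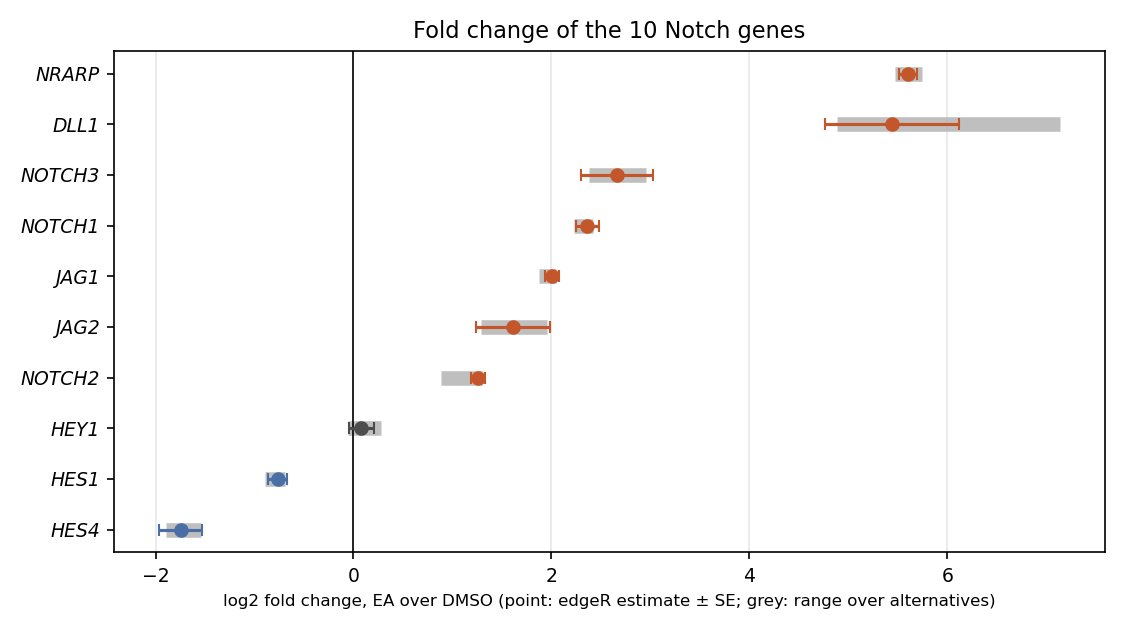
Log2 fold change of EA over DMSO for each gene (points, with SE as error bars) and the range of its estimates over the alternative settings (grey bars). NRARP stands at 5.60, the receptors between 1.26 and 2.66, JAG1 at 2.01, HEY1 at 0.08 and HES4 lowest at -1.74; DLL1, with 1 read in the DMSO libraries, has the widest grey bar, and its fitted value depends on the prior count.

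Set per kilobase of merged exon length, so that genes can be compared, JAG1 was the most abundant transcript of the 10 in both groups, at 198 ± 8.30 CPM per kb with EA and 49.3 ± 0.986 CPM per kb with DMSO (SD, n = 3 each). With EA the order of these levels went on with NRARP (102 ± 6.32), NOTCH2 (8.13 ± 0.620), HES1 (7.23 ± 0.578), NOTCH1 (3.59 ± 0.334), HEY1 (2.91 ± 0.302), HES4 (1.52 ± 0.117), NOTCH3 (0.727 ± 0.317), DLL1 (0.260 ± 0.0301) and JAG2 (0.181 ± 0.0580). Neighbours in this order overlapped between NOTCH2 and HES1 and between DLL1 and JAG2. With DMSO, HES1 (12.3 ± 0.0367) and HES4 (5.15 ± 1.31) came next after JAG1. They were followed by NOTCH2 (3.41 ± 0.126), HEY1 (2.75 ± 0.119), NRARP (2.11 ± 0.165), NOTCH1 (0.698 ± 0.0960), NOTCH3 (0.114 ± 0.0107), JAG2 (0.0588 ± 0.0245) and DLL1 (0.00449 ± 0.00778), with no overlap between neighbours. NRARP thus stood at place 2 with EA and at place 6 with DMSO. Lengths were taken from GENCODE 29, which is on another build than the authors' hg19.

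Taken as a family, the 4 NOTCH receptors summed to 12.5 ± 0.208 CPM per kb with EA and 4.31 ± 0.168 CPM per kb with DMSO. NOTCH2 made up 65.0% ± 5.07 of that sum with EA and 79.0% ± 1.55 with DMSO, and NOTCH1 28.7% ± 2.47 with EA and 16.2% ± 2.01 with DMSO. NOTCH3 made up 5.81% ± 2.51 with EA, with 2.97% in EA replicate 3, and 2.64% ± 0.147 with DMSO. NOTCH2 was the main receptor transcript in every library, and its share in each EA library was below that in each DMSO library. Ligands summed to 199 ± 8.04 CPM per kb with EA and 49.8 ± 0.926 CPM per kb with DMSO, and JAG1 was 99.3% ± 0.178 of this with EA and 99.1% ± 0.166 with DMSO. The HES and HEY genes summed to 21.2 ± 0.803 CPM per kb with EA and 43.3 ± 3.63 CPM per kb with DMSO. HES6, which in the mouse is known to oppose HES1, was 27.8% ± 1.25 of that with EA and 52.5% ± 1.87 with DMSO, and HES1 34.1% ± 1.47 with EA and 28.6% ± 2.51 with DMSO. HES2 was 7.64% ± 1.78 with EA and 0.289% ± 0.0282 with DMSO, and HES5 8.35% ± 1.95 with EA and 0.0957% ± 0.0407 with DMSO. These shares were not tested on their own.

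**Figure D3:**
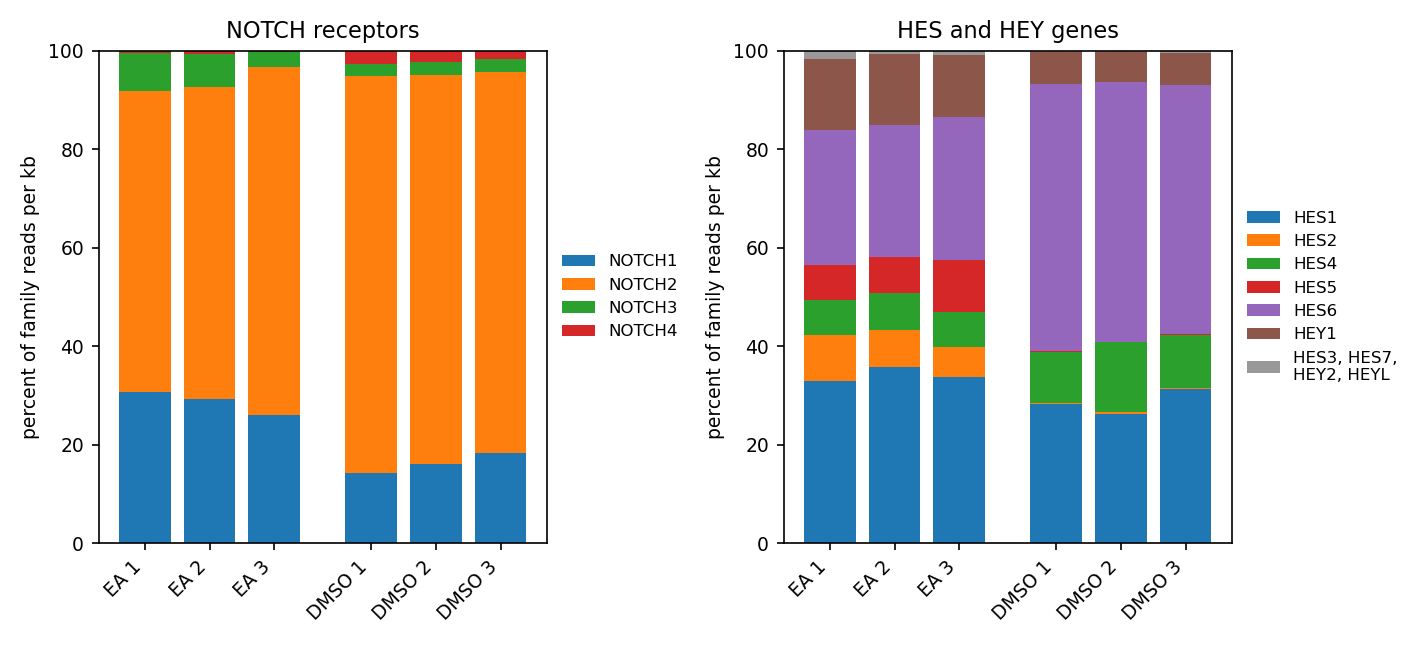
Share of each gene in the summed reads per kb of the NOTCH receptors (left) and of the HES and HEY genes (right) in each library, EA libraries left of DMSO libraries. NOTCH2 takes 61.1% to 70.8% of receptor reads in EA libraries and 77.5% to 80.6% in DMSO libraries, and HES6 takes 26.7% to 29.2% of HES and HEY reads in EA libraries and 50.6% to 54.3% in DMSO libraries.

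Ratios between genes of the same library do not depend on how libraries are scaled, and 7 were compared, as log2 of counts plus 0.5, by a two-sided exact permutation test in which 3 against 3 cannot go below p = 0.1. NRARP over NOTCH1 was 2.29 ± 0.224 with EA and -0.95 ± 0.272 with DMSO, a difference of 3.23 (exact p = 0.1). NOTCH1 over NOTCH2 was -1.88 ± 0.237 with EA and -2.99 ± 0.207 with DMSO, a difference of 1.11 (exact p = 0.1). NRARP reads therefore exceeded NOTCH1 reads in EA libraries, while NOTCH1 reads were the more numerous in DMSO libraries. These counts are not set per kilobase, and NOTCH1 is the longer gene. Per kilobase, NRARP was above NOTCH1 in both groups (102 against 3.59 CPM per kb with EA, 2.11 against 0.698 with DMSO). HES4 over HES1 was -3.11 ± 0.0106 with EA and -2.17 ± 0.351 with DMSO, so HES4 was lower relative to HES1 (exact p = 0.1). HEY1 over HES1 was -0.66 ± 0.115 with EA and -1.51 ± 0.0674 with DMSO (exact p = 0.1). NOTCH3 over NOTCH2 differed by 1.29 (exact p = 0.1), and by 0.98 to 1.78 over the alternatives, the highest without EA replicate 3. EA replicate 3 was at -5.40, near the DMSO libraries at -5.83, -5.64 and -5.69. DLL1 over JAG1 differed by 2.88 (exact p = 0.1), but by 0.37 with 5 added to the counts (exact p = 0.2), since DLL1 had 1 read in the DMSO libraries. JAG1 over JAG2 overlapped, at 10.64 ± 0.373 with EA and 10.25 ± 0.593 with DMSO (exact p = 0.5). Adjusted over the 7 ratios, the p-values were 0.117, and 0.5 for JAG1 over JAG2, and none could have passed in this design.

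The rest of the pathway was read in 9 lists of 80 distinct genes, of which 71 were tested, 39 were higher, 21 lower and 11 not called. Their share called was 84.5%, near the 81.0% of all tested genes, of which 40.5% were higher and 40.5% lower. No list was tested as a set, and their median log2 fold change was 0.48. NEURL1, NUMBL, SNAI2 and HES5, all among the higher, were below the filter's level of 0.474 CPM in every DMSO library. They were tested only through the EA libraries, so genes of their kind had to be higher to be tested. Of the other receptors and ligands, DLL4, a Delta-like ligand of vessel sprouting, rose, with 52, 97 and 48 reads in the EA libraries against 18, 18 and 20 in the DMSO libraries (log2 fold change 2.26, SE 0.29, adjusted p = 3.03e-06). The ligand-like genes DLK1 and DLK2 fell, with log2 fold changes of -1.10 and -1.30. DLK1, a marker of fetal liver cells, stood at 131 ± 25.97 CPM with EA and 281 ± 18.8 CPM with DMSO. NOTCH4 had 8, 15 and 7 reads with EA and 28, 22 and 17 with DMSO and was not called (-0.69, adjusted p = 0.0873). DLL3, which acts within the cell and does not activate receptors, had 4, 13 and 12 reads with EA and 21, 13 and 13 with DMSO and was not called either (-0.24, adjusted p = 0.584).

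Genes that act on the ligand inside the sending cell were higher in 4 of 7 cases, lower in 1 and not called in 2. Their share called was 71.4%, beside 81.0% of all tested genes (median log2 fold change 0.52). NEURL1, among the higher, was tested only through the EA libraries. The ubiquitin ligase MIB1, which drives ligand uptake, rose to 255 ± 28.6 CPM with EA, against 113 ± 5.09 CPM with DMSO, and the endocytic adaptor EPN2 rose by a log2 fold change of 0.97. The related ligase MIB2 fell, with a log2 fold change of -0.65. Of 6 genes that add sugars to the receptor, 2 were higher and 4 lower (median -0.63). Here 100% were called, beside 81.0% of all tested genes. Of the 3 Fringe glycosyltransferases, which tune the choice of ligand, 2 fell and 1 rose. RFNG fell to 24.1 ± 2.58 CPM with EA, against 62.0 ± 2.58 CPM with DMSO, LFNG had a log2 fold change of -0.89, and MFNG rose by 1.22 on the log2 scale. The glucosyltransferase POGLUT1 had a log2 fold change of -0.88.

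The proteases that cut the receptor split: of 9 tested, 3 were higher and 4 lower, and the other 2 were not called (median -0.04). Their share called was 77.8%, near the 81.0% of all tested genes. ADAM17, one of the sheddases, and FURIN, which cuts the receptor on its way to the surface, rose by log2 fold changes of 1.16 and 0.78. APH1A, a subunit of gamma-secretase, fell to 49.0 ± 4.21 CPM with EA, against 97.9 ± 5.02 CPM with DMSO. In the nuclear complex 6 of 9 genes were higher and 3 lower (median 0.72). That is 100% called, beside 81.0% of all tested genes, of which 40.5% were higher and 40.5% lower. RBPJ itself had 223 ± 4.21 CPM with EA and 68.2 ± 3.25 CPM with DMSO, a log2 fold change of 1.71 (SE 0.07, adjusted p = 2.55e-12). The acetyltransferases CREBBP and EP300, which the complex recruits, rose by 1.58 and 1.54 on the log2 scale. Of the Mastermind coactivators MAML1 rose (0.72), while MAML2 and MAML3 fell (-1.29 and -1.04), and the third lower gene was the acetyltransferase KAT2A (-1.08).

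Of 12 corepressors tested, 8 were higher, 2 lower and 2 not called (median 0.82). Their share called was 83.3%, near the 81.0% of all tested genes. TLE4 and TLE3 are of the Groucho family, which HES proteins recruit. TLE4 had 20.4 ± 1.94 CPM with EA and 1.99 ± 0.251 CPM with DMSO, and TLE3 had 133 ± 7.43 CPM with EA and 48.5 ± 1.25 CPM with DMSO. CTBP2 had 289, 335 and 289 reads with EA and 12, 18 and 12 with DMSO, a log2 fold change of 4.89. As with JAG2, 1 of the 3 DMSO libraries reached the filter's level, so CTBP2 passed it through the EA libraries. Genes of receptor turnover were higher in 7 of 11 cases, lower in 1 and not called in 3 (median 0.80). Their share called was 72.7%, beside 81.0% of all tested genes. NUMBL, among the higher, was tested only through the EA libraries. The adaptor kinase AAK1, the ubiquitin ligase MDM2 and FBXW7, which marks the intracellular domain for breakdown, rose by log2 fold changes of 1.79, 1.58 and 1.35.

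Of the other HES and HEY genes, HES5 and HES2 rose and HES6 fell. HES5, a classic target in neural progenitors, had 31, 40 and 54 reads in the EA libraries, against 1, 2 and 1 in the DMSO libraries (log2 fold change 5.27, SE 0.43, adjusted p = 1.77e-08). As with DLL1, 0 of the 3 DMSO libraries reached the filter's level, so HES5 was tested only through the EA libraries, and its fitted value rests on 4 DMSO reads. HES2 had 171, 169 and 125 reads with EA and 19, 15 and 16 with DMSO (3.68). HES6 fell to 12.0 ± 0.315 CPM with EA, against 46.4 ± 5.01 CPM with DMSO (-1.95). HES3, HES7, HEY2 and HEYL were too low to test. Among 9 tested genes known as targets in other tissues, 6 were higher and 3 lower (median 0.52). Their share called was 100%, beside 81.0% of all tested genes, of which 40.5% were higher and 40.5% lower. SNAI2, among the higher, was tested only through the EA libraries. SOX9 and SPP1 are in this list and among the bile duct markers, and both were lower. The cell cycle inhibitor CDKN1A had a log2 fold change of 2.30, SNAI1, a repressor of epithelial genes, one of 2.42 and the cyclin CCND1 one of 0.52.

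**Figure D4:**
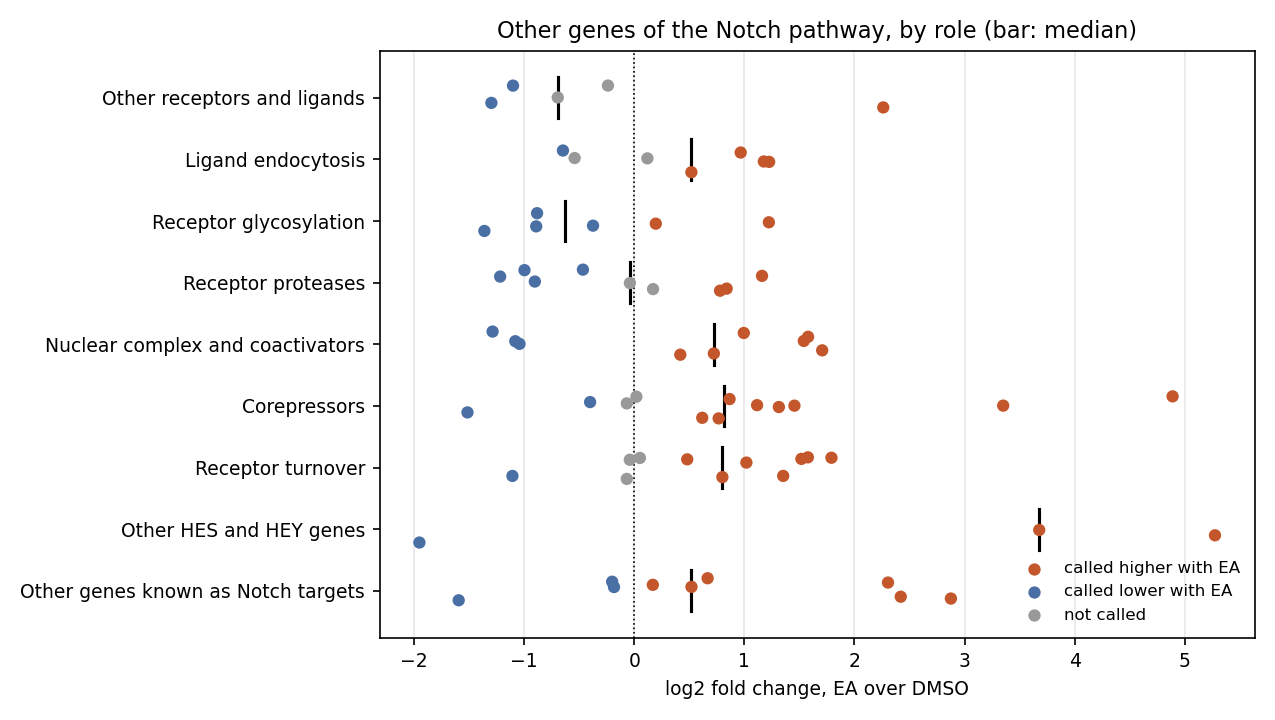
Log2 fold change, EA over DMSO, of 71 other genes of the Notch pathway, set out by role; each point is a gene, coloured by whether it was called, and black bars are list medians. Medians run from -0.69 for other receptors and ligands to 3.68 for the 3 tested HES and HEY genes, and every list holds genes on both sides of 0.

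The genes whose levels over the 6 libraries lay closest to those of NRARP, by Euclidean distance of log2 CPM centred on each gene's mean, among 12409 protein-coding genes read in all libraries, were POU2F2 (distance 0.302), HSPB8 (0.364) and SVEP1 (0.365), with log2 fold changes of 5.59 for POU2F2 and 5.51 for HSPB8. SVEP1 averaged 2.32 CPM with EA and 0.0406 CPM with DMSO, a level of few reads. Closest to HES4 were CCDC167 (0.281), NAT8 (0.335) and AURKAIP1 (0.344), with log2 fold changes of -1.63, -1.79 and -1.77. All of these profiles come from the same 6 libraries in 2 groups.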

How the data were processed

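TRIzol-extracted RNA went into NEBNext Ultra libraries, read as 150-base pairs on a HiSeq, per the labels' protocols. HTSeq 0.6.1, HISAT (no version), cutadapt 1.9.1, bcl2fastq 2.17.1.14 and build hg19 are listed per the submitters' processing notes, and no source used here gives the annotation, strand setting or filters. The authors deposited raw read counts per gene for 52408 genes, with 37 of 37 MT- genes at 0.

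Here genes were filtered with filterByExpr (minimum count 10) and libraries scaled by TMM. The groups were then tested with edgeR's quasi-likelihood test (edgeR 4.0.16, limma 3.58.1, R 4.3.3, robust, common coefficient of variation 7.96%), adjusted by Benjamini-Hochberg over 15648 genes. SE is the size of the log2 fold change over the square root of F. The test was checked on simulated counts in which most genes were left unchanged. In these data 81.0% of tested genes were called, so the check does not cover shifts this broad. Replicates of a group differed by more than sampling noise. Floors of 3 reads and count intervals cover counting error only.

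Alternatives were RLE, upper-quartile and library-size scaling, DESeq2 1.42.0, limma-voom, no filter, a filter of 1 CPM in 3 libraries, an adjusted p of 0.01, a minimum fold of 1.2, a replicate block, and leaving out the 20 genes with the most reads or each library. A length and GC correction was added after the data were seen. Members and lists were chosen with earlier results of these data known. By rule, each list names up to 3 called genes of smallest p with a mean of at least 1 CPM, all called other receptors and ligands, NOTCH4 and DLL3, near-copies of members, and the 3 nearest profiles of the members with the highest and lowest log2 fold change. FAM120B, LFNG, NEURL1, NUMBL, SNAI2, the MAML genes, KAT2A and marker genes were named, and the promoters shown were chosen, after values were seen. PECAM1 is not analysed here. Overlaps, lengths and GC content came from GENCODE 29 (GRCh38), which covered 99.9% of tested genes.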

Additional observations from a re-analysis of the deposited data

How the results depend on the processing

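Over 18 alternatives the number of the 10 Notch genes called higher was 5 to 8 and called lower 2 in each. It was 5 with a filter of 1 CPM in 3 libraries, which left JAG2 and DLL1 untested, and 8 with the length and GC correction, which added HEY1. No called gene of the 10 changed direction or lost its call where it was tested. NOTCH2 ranged from 0.89 to 1.30 and NRARP from 5.47 to 5.74 in log2 fold change. The 0.89 of NOTCH2 came with the length and GC correction and is under 2-fold. DLL1, whose fitted value depends on the prior count, ranged from 4.88 with limma-voom to 7.14 without DMSO replicate 2. That library held its 1 DMSO read. NOTCH4, not called here, was called without EA replicate 2 (-1.07, adjusted p = 0.0342) and without DMSO replicate 3 (-0.91, adjusted p = 0.04997), with adjusted p otherwise above 0.05. All genes called numbered 11130 to 14923. The difference of DLL1 over JAG1 was 0.37 with a pseudocount of 5, against 2.88.

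The labels do not say that replicate numbers pair the libraries. Deviations from group means correlated at -0.08, 0.03 and -0.02 for numbers 1, 2 and 3, and 1 of 3 EA libraries correlated best with its own number. With 3 libraries a group, such correlations cannot exclude shared cultures or batches. With the replicate block 12537 genes were called, against 12680, with 7 of the Notch genes higher and 2 lower. At these depths the levels of JAG2 and DLL1 rest on 6 to 30 and 0 to 16 reads a library.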
